A study of Mus musculus with 6 samples.

Results

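Circular RNAs (circRNAs) of genes for membrane trafficking and vesicle tethering were examined in mouse cortex. A circRNA is a closed loop made when an exon is spliced back to its own start or to an earlier exon, and it is counted by the reads across that back-spliced junction. The members were chosen by the name of the host gene, and a single host gene had to be listed. The symbol of this host began with Snx, Vps, Rab, Rab3gap, Rabgap, Dennd, Tbc1d, Exoc, Cog, Stx, Stxbp, Trappc, Arfgef or Ehbp. A number had to follow, with or without a further letter and number. Tom1l2 and Sgip1 were also taken. This gave 371 of the 11171 circRNAs in the table (3.32%), from 92 of 3469 host genes. A further 1 circRNA listed such a gene beside another host and was left out. The rule reads names only.

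All 6 libraries came from the cortex of male C57BL/6 mice that were 6 weeks old, with 1 library per mouse. The 3 TLE mice (temporal lobe epilepsy model) had received scopolamine methyl bromide, then pilocarpine to induce Status Epilepticus and diazepam to end it, and their cortex was taken 24 h after Status Epilepticus. The 3 Control mice had received saline in place of each drug, so the effects of the 3 drugs and of the seizures cannot be told apart. The comparison asks which circRNAs of cortex differ early after Status Epilepticus. The RNA came from whole cortex, in which fewer cells of a type and less RNA per cell cannot be told apart.

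Cargo moves between the compartments of a cell in vesicles. Rab GTPases, switched on by exchange factors (GEFs) such as the DENN proteins and off by activating proteins (GAPs) such as the TBC proteins, mark each compartment. Tethering complexes catch the incoming vesicle, and syntaxins with their Sec1/Munc18 partners carry out the fusion. Sorting nexins and some of the VPS complexes return cargo from endosomes. In neurons the same machinery supplies the synapse with vesicles and receptors.

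The junctions of 12 circRNAs are shown, those of the 5 circRNAs past the study's threshold in the comparison and of the more abundant circles, so that circles of the same gene can be told apart. Each is the last 15 bases of the last exon in lower case, followed by the first 15 bases of the first exon in capitals, 5′ to 3′ on the strand of the gene, read from GENCODE M21 transcripts (mouse build GRCm38, named mm10 in the labels).
Snx27 mmu_circ_0006967, exon 7 to exon 3: tacttctttcatcagGTATACAATGTTTAC
Vps13c mmu_circ_0010657, exon 11 to exon 4: agggagcacatcttgATAAATTAACTTTGA
Exoc3 mmu_circ_0002071, exon 10 to exon 7: aagccatataaaaagATGTTCGAACAGAAT
Tom1l2 mmu_circ_0000858, exon 7 to exon 2: ctggaactactacagAGAAGGCAACAGATG
Cog5 mmu_circ_0001337, exon 11 to exon 7: attcagcaacaaactATTATCTTTCTCAAG
Dennd1b mmu_circ_0004822, exon 9 to exon 4: agcaaattaagcactGAAGTTCTGCAGAGC
Dennd1b mmu_circ_0004827, exon 9 to exon 6: agcaaattaagcactTTACTTGCCATGGTT
Dennd1b mmu_circ_0004834, exon 14 to exon 10: cagctctttaagcagTTAACTGCCTGTCTC
Dennd1b mmu_circ_0004838, exon 14 to exon 11: cagctctttaagcagTGCCCCAATGCCATA
Stx6 mmu_circ_0004883, exon 7 to exon 2: ctcacatgaccagtgAGAGGTACAGAAAGC
Vps45 mmu_circ_0006977, exon 10 to exon 8: tctagtgctcttcagTGGACATATCAGGCC
Exoc6b mmu_circ_0008871, exon 6 to exon 3: actgccatgaagcaaAACCAGGTGACGGAC
The 4 Dennd1b circles form 2 pairs that share their lower-case part, since they end at the same exon and differ only in the exon they start from.

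Expression was given in SRPBM, the junction reads of a circRNA scaled to the mapped reads of the library, as the methods of the study define it. Since each circRNA is counted at a single junction, SRPBM does not scale with the length of the circle and levels of different circles were compared directly. Values rose in steps of between 8.55 and 10.3 SRPBM in a library, and a step was read as 1 junction read. The table itself gives no reads, so all read numbers here are inferred from the steps, and on this reading the libraries held between 32504 and 56516 junction reads. The floor of 3 reads was 25.6 to 31.0 SRPBM, which allows for counting error only. Zeros are reported as listed. TLE replicate 1 held the fewest junction reads and TLE replicate 3 the most. The step was largest in TLE replicate 1 and smallest in Control replicate 1. Since the step falls as mapped reads rise, TLE replicate 3 was not the most deeply sequenced library on this reading. The total SRPBM was 347492 ± 14939 in Control and 411269 ± 76664 in TLE (SD, n = 3 each).

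The trafficking circRNAs made up 2.49%, 2.28% and 2.62% of the total SRPBM in the Control libraries and 2.04%, 2.44% and 2.40% in the TLE libraries. The groups overlapped (2.47 ± 0.172% in Control and 2.29 ± 0.221% in TLE, SD, n = 3). The Control libraries held 140, 126 and 170 of these circRNAs and the TLE libraries 114, 172 and 196. Of the 371, 171 (46.1%) were detected in only 1 library and 47 (12.7%) in all 6. The median was 5 junction reads over the 6 libraries together, as over all 11171 circRNAs, and 8 circRNAs had 100 or more reads.

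The signal was concentrated in a few host genes. Dennd1b alone carried 20.9% of the mean SRPBM of these circRNAs, the leading 5 host genes 40.5% and the leading 15 genes 65.5%. The median host gene had a summed level of 30.1 SRPBM. Among the 15 most abundant host genes, 9 had a log2 fold change (TLE over Control) above 0 and 6 below 0. Their log2 fold changes lay between -0.57 and 0.36, the smallest unadjusted p in limma was 0.240, and for none of these 15 did the Control and TLE values separate as deposited. At equal library totals Vps45 was lower in every TLE library than in every Control library (log2 fold change -0.18). TLE replicate 3 was the highest of the 6 libraries for 9 of the 15 genes and TLE replicate 1 the lowest for 8. These libraries also held the most and the fewest junction reads. When all libraries were set to the same total, 3 of the 15 genes stayed above 0.

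**Figure D1:**
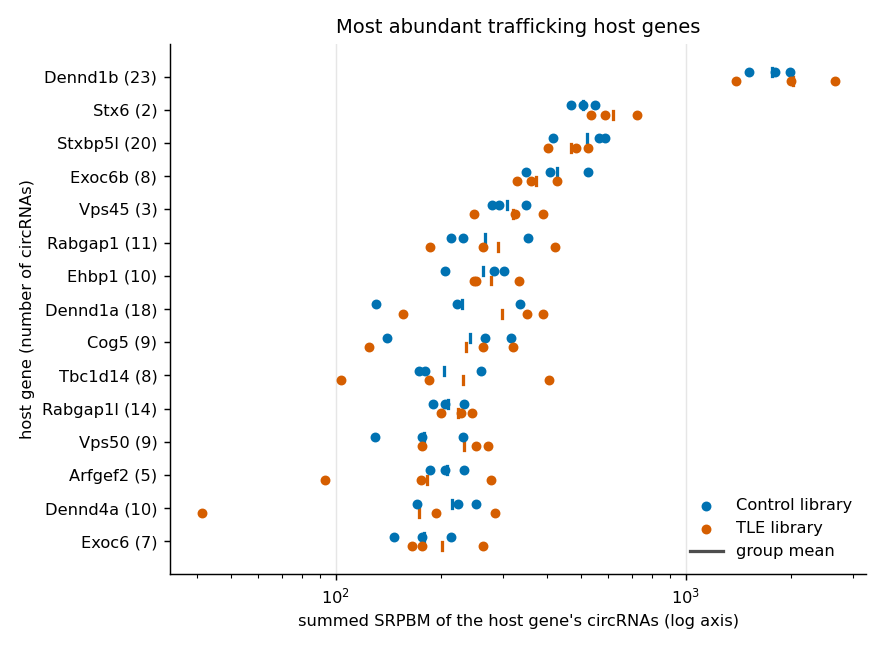
Summed SRPBM of the circRNAs of the 15 most abundant trafficking host genes (log axis), with 1 point per library, Control in blue and TLE in orange, and short bars for the group means. Dennd1b lies well above the other genes, and the Control and TLE points overlap in every row.

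DENN proteins, the exchange factors for Rabs, had the highest level of the families, with 27.8% of the trafficking SRPBM in 63 circRNAs of 9 genes. Dennd1b, an activator of Rab35, had 1983, 1515 and 1800 SRPBM in the Control libraries and 1395, 1999 and 2665 SRPBM in the TLE libraries, summed over its 23 circRNAs. TLE replicate 1 was the lowest and TLE replicate 3 the highest of the 6, and the log2 fold change was 0.15 (SE 0.23, limma). Dennd1b ranked 12 among all 3469 host genes. Its relative Dennd1a, with 18 circRNAs, summed to 229 ± 103 SRPBM in Control and 298 ± 126 SRPBM in TLE (SD, n = 3). Dennd4a had 171, 251 and 224 SRPBM in Control and 41.3, 193 and 286 SRPBM in TLE, with TLE replicate 1 far below the other 5 libraries and a log2 fold change of -0.57 (SE 0.47). The lower-level members were Dennd2a (112 SRPBM on average), Dennd5b (20.2), Dennd5a (11.6), Dennd3 (8.65), Dennd6a (7.52) and Dennd4c (5.16).

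The 23 Dennd1b circles reused few exon ends. At the start, 7 began at exon 4 of the transcript and held 55.9% of the gene's SRPBM, and 6 began at exon 6 with 22.7%. At the other end, 5 stopped at exon 14 (30.0%), 5 at exon 19 (3.20%) and 3 at exon 9 (59.7%). The circle of exons 4 to 9 (mmu_circ_0004822, 486 nucleotides, chr1:139040000-139062971) had a mean of 828 SRPBM, ranking 35 among all 11171 circRNAs. It had 906, 549 and 758 SRPBM in Control and 702, 798 and 1255 SRPBM in TLE. Its share of the gene's signal was 41.3 ± 4.79% in Control and 45.8 ± 5.35% in TLE (SD, n = 3), and the groups overlapped. The circle of exons 6 to 9 (mmu_circ_0004827), which has the same end, had 300.1 ± 31.4 SRPBM in Control and 288 ± 72.4 SRPBM in TLE (SD, n = 3). The circles of exons 10 to 14, 11 to 14 and 4 to 14 had means of 192, 134 and 119 SRPBM, and 13 of the 23 were under 20 SRPBM.

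**Figure D2:**
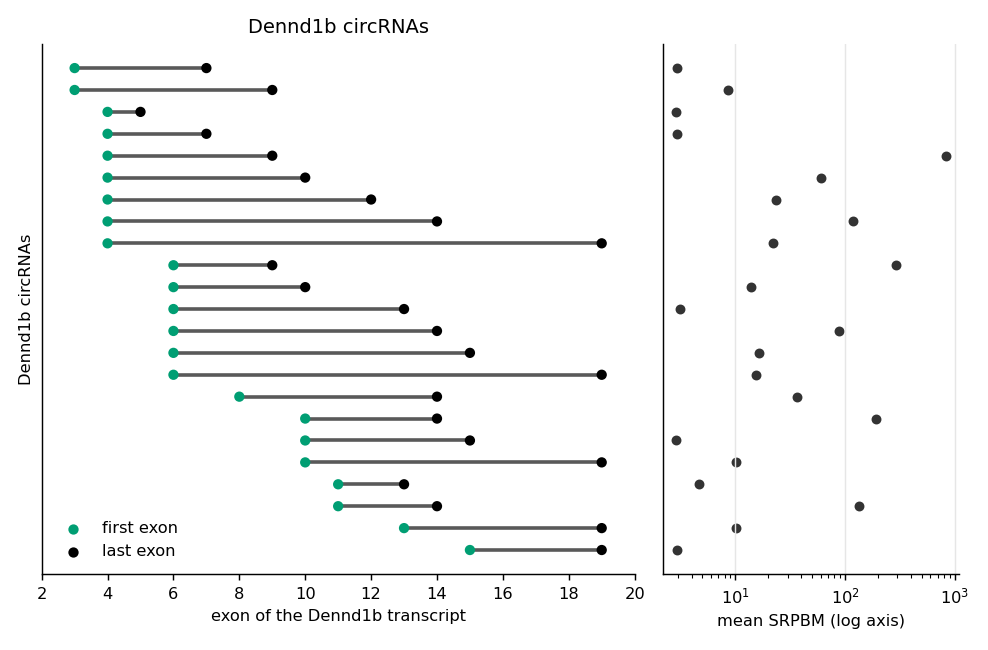
The 23 Dennd1b circRNAs, each drawn from its first exon (green) to its last exon (black) on the exon numbers of the transcript, with the mean SRPBM over the 6 libraries on a log axis at the right. The circle of exons 4 to 9 stands at 828 SRPBM, above the circle of exons 6 to 9 at 294 SRPBM and all others.

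The Rab GTPases themselves gave little circular RNA. The 8 Rab genes with a circRNA held 13 circles, with 302 ± 74.3 SRPBM in Control and 338 ± 56.8 SRPBM in TLE (SD, n = 3), 3.54% of the trafficking SRPBM. Rab6b, a Golgi Rab of neurons, led with 179.5, 158 and 215 SRPBM in Control and 134, 175 and 208 SRPBM in TLE, most of it in the circle of exons 2 to 6. The single circle of Rab11a, the Rab of recycling endosomes, had 25.6, 102 and 112 SRPBM in Control against 82.6, 78.9 and 86.5 SRPBM in TLE, so the TLE values lay within the range of Control. Rab10 and Rab2a, which act in traffic to the surface and between the endoplasmic reticulum and the Golgi, were detected in 3 libraries each. Rab22a, Rab23, Rab40b and Rab6a were detected in 1 library each.

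The TBC proteins and relatives that switch Rabs off held 62 circRNAs of 15 genes and 11.9% of the trafficking SRPBM (1015 ± 39.6 SRPBM in Control and 1139 ± 328 SRPBM in TLE, SD, n = 3). Rabgap1 had 231, 214 and 353 SRPBM in Control and 186, 263 and 424 SRPBM in TLE, and 8 of its 11 circles started at exon 2, with 87.4% of its signal. Rabgap1l had 205, 232 and 189.5 SRPBM in Control and 227, 245 and 199 SRPBM in TLE. The groups overlapped for both genes. Tbc1d14, which acts on recycling endosomes and autophagy, had the widest spread of the family in TLE, with 103, 184 and 407 SRPBM in TLE against 179.5, 260.3 and 172 SRPBM in Control. Tbc1d5, a GAP that works with retromer, had 94.7 ± 26.2 SRPBM in Control and 103 ± 17.7 SRPBM in TLE (SD, n = 3). The Rab3GAP pair, which acts on Rab3 and Rab18, had 55.03 ± 24.9 SRPBM in Control and 40.5 ± 43.5 SRPBM in TLE (SD, n = 3), with a value of 0 in TLE replicate 1.

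Among the tethers, the exocyst, which docks vesicles at the plasma membrane, was the most abundant. Its 6 host genes held 27 circRNAs, with 700 ± 95.9 SRPBM in Control and 715 ± 51.4 SRPBM in TLE (SD, n = 3). Exoc6b had 350.4, 409 and 525 SRPBM in Control and 362, 429.6 and 329 SRPBM in TLE, and Exoc6 had 214, 177 and 146 SRPBM in Control and 176, 263 and 164 SRPBM in TLE. Of the 7 Exoc6 circles, 6 started at exon 2. The TRAPP complex of the Golgi and its early traffic had 422 ± 69.7 SRPBM in Control and 387 ± 121 SRPBM in TLE (SD, n = 3), chiefly from a single circle each of Trappc11 (166 SRPBM on average) and Trappc6b (118). GARP and EARP, tethers for vesicles from endosomes, had 309 ± 82.8 and 391 ± 116 SRPBM (SD, n = 3), led by Vps50 with 179 ± 50.8 SRPBM in Control and 233 ± 50.6 SRPBM in TLE (SD, n = 3).

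The COG complex, which tethers vesicles within the Golgi, was represented by Cog5 and Cog7 only. Cog5 had 316, 139 and 267 SRPBM in Control and 124, 263 and 320 SRPBM in TLE, and 5 of its 9 circles started at exon 7. HOPS and CORVET, the tethers of lysosomes and early endosomes, had 211 ± 22.8 SRPBM in Control and 290 ± 69.3 SRPBM in TLE (SD, n = 3) with overlapping values, led by Vps41 (143 ± 27.7 and 184 ± 49.7 SRPBM, SD, n = 3). The summed level of no tethering complex separated the groups.

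Syntaxins and their binding proteins held 45 circRNAs of 9 genes and 17.6% of the trafficking SRPBM. Stx6, a syntaxin of the trans-Golgi network and endosomes, had 470.0, 549 and 508 SRPBM in Control and 537, 587 and 727 SRPBM in TLE. The groups overlapped at the second Control and the first TLE library, and the log2 fold change was 0.26 (SE 0.24) as deposited and 0.04 at equal library totals. The circle of exons 2 to 7 (mmu_circ_0004883, chr1:155173986-155197435) carried nearly all of it. Vps45, the Sec1/Munc18 protein of endosomes, had 307 ± 37.9 SRPBM in Control and 321 ± 70.8 SRPBM in TLE (SD, n = 3), and its 3 circles all started at exon 8.

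Tomosyns, which bind syntaxin and restrain synaptic release, are made by Stxbp5l and Stxbp5. Stxbp5l had 20 circles with 564, 418 and 586 SRPBM in Control and 403, 526 and 485 SRPBM in TLE, and Stxbp5 had 128, 112 and 181 SRPBM in Control and 196, 132 and 234 SRPBM in TLE. Both overlapped between groups. As a family the syntaxin group had 1573 ± 112 SRPBM in Control and 1623 ± 215 SRPBM in TLE (SD, n = 3), and as a share of the library total every TLE library was below every Control library.

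The endosomal sorting nexins had 34 circRNAs of 15 genes, with 487, 316 and 672 SRPBM in Control and 289, 710.2 and 787 SRPBM in TLE. Snx13 led them (145 ± 46.1 SRPBM in Control and 132 ± 43.9 SRPBM in TLE, SD, n = 3), and 5 of its 6 circles started at exon 2. Among the members, retromer and retriever were present only as Vps35l (6 reads in all), and the ESCRT machinery only as Vps4b (2 reads). ESCRT genes outside the name rule gave 13 circRNAs of 6 host genes. VPS13 proteins, which pass lipids between membranes, had 299, 288 and 319 SRPBM in Control and 331, 333 and 502 SRPBM in TLE. These values did not overlap as deposited, but they overlapped as a share of the library total. Vps13b, the gene of Cohen syndrome, led them (91.7 ± 30.3 SRPBM in Control and 155 ± 80.8 SRPBM in TLE, SD, n = 3).

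The Arf GEFs, which start coat formation at the Golgi, had 231 ± 49.7 SRPBM in Control and 227 ± 117 SRPBM in TLE (SD, n = 3). Arfgef2 led them with 205, 186 and 233 SRPBM in Control against 93.0, 175 and 277 SRPBM in TLE. The endocytic adaptors had 332 ± 104 SRPBM in Control and 438 ± 93.6 SRPBM in TLE (SD, n = 3), led by Ehbp1, which binds EHD proteins and had 282, 205 and 301 SRPBM in Control and 248, 333 and 251 SRPBM in TLE. Sgip1, an adaptor of clathrin-mediated endocytosis rich in brain, was at 0 in Control replicates 1 and 2 and TLE replicate 1 and had 94.7 SRPBM in Control replicate 3 and 105 and 156 SRPBM in the other TLE libraries.

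**Figure D3:**
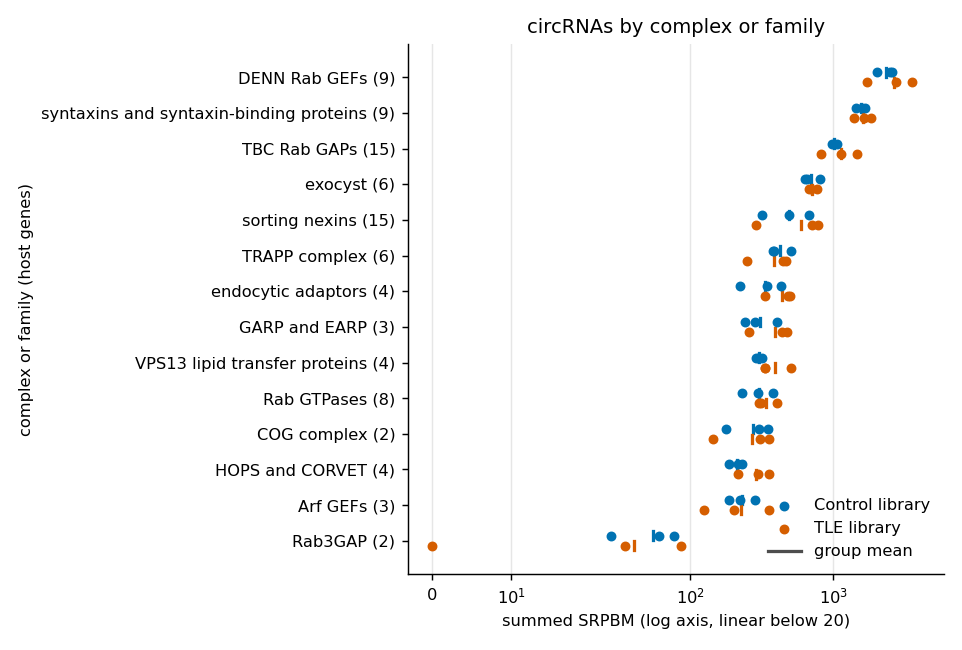
Summed SRPBM of the trafficking circRNAs by complex or family for the 14 groups with more than 1 host gene (log axis, linear below 20), with 1 point per library and short bars for the group means. DENN proteins, syntaxins and TBC proteins lie highest, and only the VPS13 row has every TLE point above every Control point.

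For the comparison limma was fitted to log2(SRPBM + 17.1), and the added 17.1 is the lowest non-zero SRPBM found, and 4271 circRNAs seen in 3 or more libraries entered. The study's threshold, a log2 fold change of 1.5 or beyond (up or down) and a p under 0.05, was applied to the unadjusted p. Of the 371 trafficking circRNAs 134 entered. Among them 4 (2.99%) were higher in TLE, beside 1.26% of all circRNAs tested, and 1 (0.746%) was lower, beside 0.304%. Of these 5, 4 were listed at 0 in all libraries of a group and entered the test only through the other group, so they had to differ and the counts are a description. The same held for 39 of the 67 calls over the whole table. Without such circRNAs, 1 of 128 trafficking circRNAs was higher and 0 lower, beside 24 and 4 of 4155. None of the 134 had an adjusted p under 0.05 in limma (the smallest was 0.838). An unadjusted p under 0.05 in limma was found for 7 of the 134 (5.22%, beside 5.20% of all 4271). These 7 include all 6 of the 134 that were at 0 throughout a group, so this count is a description too. All 5 calls rest on 20 junction reads or fewer in the 6 libraries together. The median log2 fold change was 0.13 for the 134 and 0.17 for all 4271. At equal library totals these medians were -0.03 and 0.01, and the calls over the whole table were 37 higher and 25 lower in place of 54 and 13, while those of the trafficking circRNAs stayed at 4 and 1.

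Snx27, the sorting nexin that recycles receptors from endosomes with retromer, gave the circRNA with the highest fold change among the members. Its circle of exons 3 to 7 (mmu_circ_0006967, 606 nucleotides, chr3:94519048-94531389) was listed at 0 in all 3 Control libraries, and TLE replicates 1, 2 and 3 had 41.3, 61.4 and 69.2 SRPBM. Against the floor of 3 reads per Control library the TLE mean, taken as exact, was at least 2.17-fold higher. The fitted log2 fold change was 2.10 (SE 0.60, adjusted p = 0.838 in limma). The other 4 circles of Snx27 shared an exon end with it or with each other and lay at 2 to 4 reads in the libraries that had them. The circle of exons 3 to 8 was seen in Control replicates 2 and 3 and the circle of exons 2 to 7 in Control replicate 1, neither in TLE. The summed Snx27 signal was 34.2, 18.6 and 60.3 SRPBM in Control and 41.3, 87.7 and 104 SRPBM in TLE, which overlapped, and did not pass the threshold (log2 fold change 0.80, SE 0.55, limma).

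Vps13c, a lipid transfer protein between the endoplasmic reticulum and late endosomes, had a circle of exons 4 to 11 (mmu_circ_0010657, 638 nucleotides, chr9:67858790-67878177) at 0, 18.6 and 0 SRPBM in Control and 41.3, 61.4 and 60.6 SRPBM in TLE. Its log2 fold change was 1.70 (SE 0.62, adjusted p = 0.838 in limma). The more abundant Vps13c circle, of exons 10 to 18, was not higher in TLE: it had 34.2, 65.1 and 34.5 SRPBM in Control and 20.7, 0 and 34.6 SRPBM in TLE. The sum over the 9 Vps13c circles was 77.1 ± 37.3 SRPBM in Control and 103 ± 38.3 SRPBM in TLE (SD, n = 3).

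Exoc3, an exocyst subunit, had a circle of exons 7 to 10 (mmu_circ_0002071, 486 nucleotides, chr13:74180435-74184773) that was listed at 0 in Control, while the TLE libraries had 41.3, 17.5 and 60.6 SRPBM, with a log2 fold change of 1.66 (SE 0.59, adjusted p = 0.838 in limma). Its other 2 circles were seen only in Control replicate 3, with 2 reads each. Tom1l2, an adaptor related to Tom1 that binds clathrin and ubiquitin, had a circle of exons 2 to 7 (mmu_circ_0000858, 725 nucleotides, chr11:60258856-60280283) that was likewise listed at 0 in Control and had 31.0, 35.1 and 34.6 SRPBM in TLE. The log2 fold change was 1.57 (SE 0.55, adjusted p = 0.838 in limma). The Tom1l2 circle of exons 3 to 7, which ends at the same exon, was seen in both groups, with 42.7, 0 and 34.5 SRPBM in Control and 20.7, 26.3 and 26.0 SRPBM in TLE.

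The circle lower in TLE came from Cog5. Its exons 7 to 11 (mmu_circ_0001337, 570 nucleotides, chr12:31760847-31820206) had 25.6, 37.2 and 34.5 SRPBM in Control and 0 in the 3 TLE libraries. Against the floor of 3 reads per TLE library it was at least 1.17-fold lower, with the Control mean taken as exact. The value of Control replicate 1 was itself 3 reads. The log2 fold change was -1.53 (SE 0.55, adjusted p = 0.838 in limma). The Cog5 circles of exons 7 to 10 and 7 to 14, which start at the same exon, had means of 83.3 and 55.8 SRPBM and overlapped between groups.

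Of the 5 calls, 4 depended on single libraries, while Vps13c stayed past the threshold with each of the 6 libraries left out in turn (log2 fold change 1.52 to 2.05). Without Control replicate 2 the Vps13c circle was at 0 in the remaining Control libraries. It entered that fit only through TLE and had to differ. A circle seen in only 3 libraries drops out of the test when 1 of them is left out: the Cog5 call was lost without Control replicate 1, 2 or 3, and those of Snx27, Exoc3 and Tom1l2 without TLE replicate 1, 2 or 3. Without TLE replicate 1 the circles past the threshold were 2 higher (Vps13c and a Sgip1 circle), without TLE replicate 2 also 2 (Vps13c and a Rabgap1 circle) and without TLE replicate 3 only 1 (Vps13c). Next to the threshold lay the Dennd1b circle of exons 6 to 19 (log2 fold change 1.48) and the Exoc2 circle of exons 8 to 12 (1.39), with adjusted p = 0.838 each in limma. Both were at 0 in Control, the first at 31.0, 35.1 and 26.0 SRPBM in TLE and the second at 31.0, 26.3 and 26.0 SRPBM, at the floor of 3 reads.

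**Figure D4:**
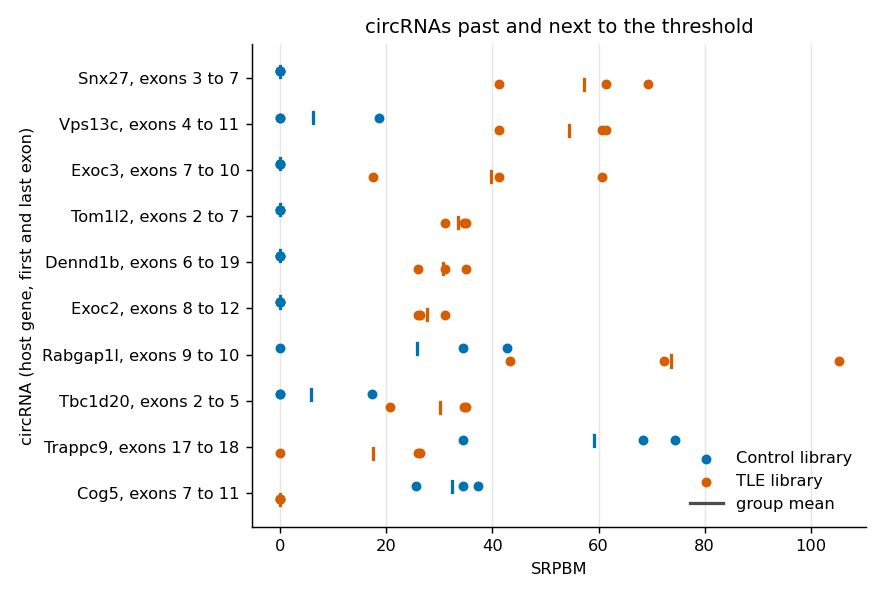
SRPBM of the 5 circRNAs past the threshold and the 5 with the next log2 fold changes, named by host gene and first and last exon, with 1 point per library, Control in blue and TLE in orange, and short bars for the group means. The Control points of Snx27, Exoc3 and Tom1l2 and the TLE points of Cog5 lie at 0, and most other points are under 80 SRPBM.

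**Figure D5:**
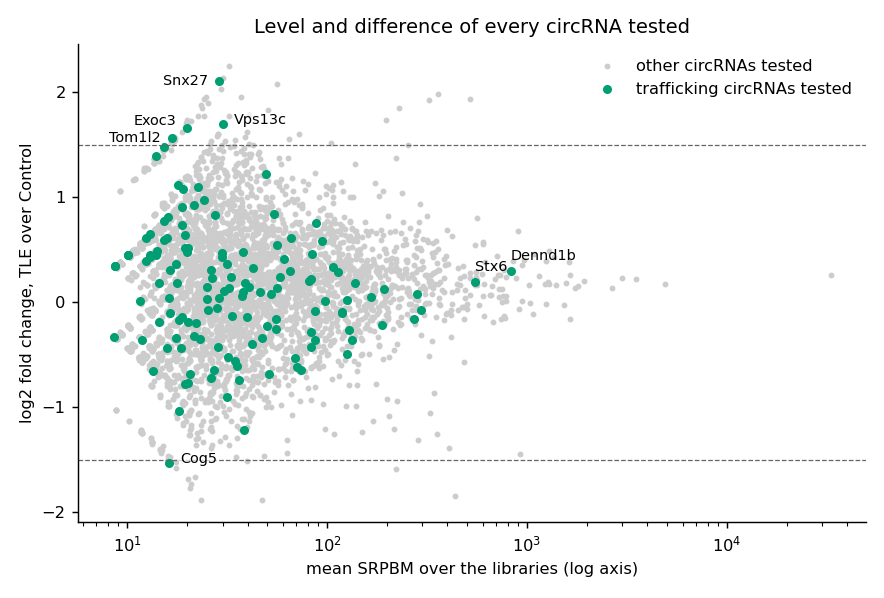
Mean SRPBM over the 6 libraries (log axis) against the log2 fold change for the 4271 circRNAs tested, with the 134 trafficking circRNAs in green and broken lines at log2 fold changes of 1.5 and -1.5. The named circles past the lines have means under 31 SRPBM, and the most abundant members, of Dennd1b and Stx6, lie near 0.

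The 3 TLE libraries all lay above the 3 Control libraries for 10 of the 134 trafficking circRNAs (7.46%), beside 8.94% of all circRNAs tested, and below for 5 (3.73%), beside 2.11%. At equal library totals these numbers were 7 (5.22%, beside 5.08% of all) and 9 (6.72%, beside 4.96%). In both counts, 5 of those higher and 1 of those lower were at 0 in every library of the other group. Over the whole table this held for 75 and 41 circRNAs. Such circRNAs entered only through 1 group and had to separate, so these counts are a description. Those higher included a Rabgap1l circle of exons 9 to 10 (42.7, 0 and 34.5 SRPBM in Control, 72.3, 105 and 43.3 SRPBM in TLE), the circle of Tbc1d20, a GAP of Rab1 and Rab18 (0, 0 and 17.2 against 20.7, 35.1 and 34.6 SRPBM), and an Exoc6 circle of exons 2 to 20 (0, 0 and 17.2 against 62.0, 17.5 and 17.3 SRPBM). The log2 fold changes of these 3 were 1.22, 1.11 and 1.08, each with adjusted p = 0.922 in limma. At equal library totals the groups overlapped for the Rabgap1l and Exoc6 circles. In reads all 3 circles were tied between groups, and only the step of each library set them apart. The Rabgap1l circle had 5 reads in Control replicate 1 and TLE replicate 3. The Tbc1d20 circle had 2 reads in Control replicate 3 and TLE replicate 1. The Exoc6 circle had 2 reads in Control replicate 3 and in TLE replicates 2 and 3. The circle of exons 8 to 10 of Vps41, a HOPS subunit, had more reads: 85.5, 55.8 and 77.5 SRPBM in Control and 114, 123 and 112 SRPBM in TLE (log2 fold change 0.58, SE 0.37, adjusted p = 0.922 in limma), and overlapped at equal library totals. It is named here after its values were seen.

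Besides Cog5, the circles lower in every TLE library came from Trappc9, Dennd4a and Rabgap1, and those other than the first Trappc9 circle are named after their values were seen. Trappc9, a TRAPP subunit whose loss causes microcephaly, had 2 of them. Its circle of exons 17 to 18 had 68.4, 74.4 and 34.5 SRPBM in Control and 0, 26.3 and 26.0 SRPBM in TLE (log2 fold change -1.22, SE 0.61, adjusted p = 0.922 in limma). Its circle of exons 5 to 8 had 42.7, 65.1 and 43.1 SRPBM in Control and 31.0, 35.1 and 34.6 SRPBM in TLE. The Rabgap1 circle of exons 2 to 13 had 97.3 ± 13.2 SRPBM in Control and 68.2 ± 12.5 SRPBM in TLE (SD, n = 3). The Dennd4a circle of exons 2 to 5 had 34.2, 37.2 and 34.5 SRPBM in Control and 0, 26.3 and 26.0 SRPBM in TLE. This was 4 reads in each Control library and 0, 3 and 3 in TLE (log2 fold change -0.72, SE 0.63, adjusted p = 0.922 in limma). The Rabgap1 circle overlapped between groups at equal library totals.

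By host gene, 64 of the 92 entered the comparison of 2157 host genes and none passed the threshold in either direction, beside 1.53% of all host genes tested that were higher and 0.371% that were lower. In limma, 1 of the 64 (1.56%, beside 6.17% of all 2157) had an unadjusted p under 0.05 and none an adjusted p under 0.05 (the smallest was 0.772). That gene was Arfgef3, an Arf GEF relative of secretory granules, listed at 0 in Control, with 31.0, 26.3 and 17.3 SRPBM in TLE, no more than 3 reads in a library (log2 fold change 1.28, SE 0.58, adjusted p = 0.772 in limma). Arfgef3 entered the test only through the TLE libraries, so it had to differ. The median log2 fold change was 0.13 for the 64 genes and 0.20 for all host genes, and -0.07 and 0.01 at equal library totals. The TLE libraries all lay above the Control libraries for 4 genes (6.25%, beside 10.7% of all), namely Arfgef3, Tbc1d20, Tom1l2 and Vps8. They lay below for 1 (1.56%, beside 1.95%), Stx17, a syntaxin of autophagosomes, with 51.3, 37.2 and 34.5 SRPBM in Control and 20.7, 26.3 and 0 SRPBM in TLE. Stx17 had no more than 6 reads in a library. At equal library totals 3 genes were higher (4.69%, beside 5.61%) and 4 lower (6.25%, beside 4.73%). Those lower were Stx17, Vps45, Rab6b and Vps53. The single Tbc1d20 circle was tied between groups in reads, as given above. Tom1l2 summed to 42.7, 18.6 and 34.5 SRPBM in Control and 82.6, 61.4 and 60.6 SRPBM in TLE, and Vps8, a CORVET subunit, to 52.7 ± 6.72 and 64.2 ± 5.17 SRPBM (SD, n = 3), which overlapped at equal library totals.

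The share of a gene's SRPBM held by its leading circle is described with no test, since the leading circle was chosen on these values. Among the 24 trafficking hosts with 5 or more circles and a signal in every library, the share was higher in every TLE than in every Control library for 1 (4.17%, beside 5.08% of 551 hosts of all kinds) and lower for 3 (12.5%, beside 6.17%). The first was Snx27 and the others were Ehbp1, Dennd1a and Vps13c, whose leading circles are described here or above. In Ehbp1 the circle of exons 16 to 21 made up 75.8%, 86.4% and 74.3% of the gene's SRPBM in Control and 62.5%, 55.3% and 72.4% in TLE, so the groups did not overlap. A second Ehbp1 circle, of exons 4 to 5, was listed at 0 in Control and had 62.0, 43.8 and 0 SRPBM in TLE. In Dennd1a the leading circle made up 34.6%, 71.4% and 28.2% of the signal in Control and 20%, 22.5% and 13.3% in TLE, again without overlap. In Exoc6b the leading circle, of exons 3 to 6, held 67.1 ± 7.42% in Control and 68.0 ± 7.76% in TLE, and in Stxbp5l that of exons 13 to 21 held 23.8 ± 1.44% and 27.6 ± 7.98% (SD, n = 3).

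The circles of these genes were built much as those of other genes. Both ends lay on exon boundaries of a transcript of the host gene for 350 of 371 (94.3%), against 9216 of 10273 (89.7%) of all circRNAs with a single host. They spanned a median of 5 exons and 593 nucleotides of exon, against 4 exons and 608 nucleotides. A single exon made up 6 of the 350 (1.71%, against 3.95%), and 80 (22.9%) started at exon 2, against 29.9%. The whole circle lay within the coding sequence for 311 (88.9%, against 82.6%), and the exon length was a multiple of 3 in 145 (41.4%, against 38.0%). The introns before and after had median lengths of 10233 and 8513 bases, against 10308 and 8691.5 bases. The lengths follow from the annotation, since junction reads do not show which inner exons were kept. Of the 371, 277 (74.7%) shared an end with another circle of the same gene, against 67.7% of all single-host circRNAs, and circles with a shared end are not independent of each other.

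Of 259 other trafficking genes (coats, adaptors, SNAREs, Arf proteins, ESCRT, golgins and Rab effectors), 103 had a circRNA. Of their 104 circRNAs tested, none passed the threshold in either direction in limma, and 7 (6.73%, beside 5.20% of all circRNAs) had an unadjusted p under 0.05. Of their 64 host genes tested, 3 (4.69%, beside 6.17% of all) had an unadjusted p under 0.05, 2 (3.13%, beside 1.53%) were higher and none was lower. The pair higher in TLE was Ap2a2, a subunit of the AP-2 adaptor of endocytosis, at 0 in Control and 51.6, 43.8 and 51.9 SRPBM in TLE (log2 fold change 1.95, SE 0.59, adjusted p = 0.728 in limma), and Chmp3, an ESCRT-III subunit, at 0 in Control and 41.3, 26.3 and 34.6 SRPBM in TLE (1.57, SE 0.59, adjusted p = 0.728). Both genes entered the test only through the TLE libraries, so they had to differ and the counts that hold them are a description. Together the 103 genes had 6228 ± 84.3 SRPBM in Control and 7538 ± 1428 SRPBM in TLE (SD, n = 3). These sums are as deposited and were not set to equal library totals. The mean library total was also higher in TLE (347492 SRPBM in Control and 411269 SRPBM in TLE).

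Cell type markers were read as host genes of circRNAs. Of 8 neuron markers 3 had circRNAs, summing to between 529.8 and 753 SRPBM in Control and between 589 and 839 SRPBM in TLE, with overlapping groups. Of 6 astrocyte and 5 oligodendrocyte markers 1 each had circRNAs, at no more than 34.6 SRPBM in any library. None of the 5 microglia and 5 endothelial markers was a listed host. The part of a shift in cell types in the values above was not tested.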

How the data were processed

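The authors removed ribosomal RNA from 3 µg of total RNA per mouse, filtered the reads, and called circRNAs by CIRI on reads aligned by BWA-MEM (mm10; versions not given in the sources used here). The deposited values are a normalized signal, SRPBM, and the authors compared groups with DESeq2. The 6 deposited files were identical and were read once. All values were whole multiples of a step per library (tolerance 0.05), with 2 steps the smallest.

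Host symbols came from the Ensembl IDs (3466 of 3469 matched). Members and lists were chosen with earlier results of these data known. SRPBM is not a count, so limma 3.58.1 (R 4.3.3, empirical Bayes with trend, two-sided, Benjamini-Hochberg over all tested) was run on log2(SRPBM + 17.1), on circRNAs and on sums per host gene above 0 in at least 3 libraries. On this scale changes of low circRNAs are understated. The code was tested on simulated data. The exon numbers refer to the GENCODE M21 transcript with both ends as boundaries, the principal coding one where several fit. Libraries of a group differed beyond counting noise (chi-square per degree of freedom 1.94 to 3.11). With 3 libraries per group an exact permutation test cannot go below p = 0.1, and single-sample depth limits any one circle.

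Named were circRNAs and host genes past the threshold, those with groups that do not overlap and a log2 fold change of at least 1, the 15 most abundant of each, the leading gene of each complex and an Snx27 circRNA. Alternatives covered the pseudocount, the filter, library totals, the variance model, the replicate number as a block, the threshold, each library left out and a broader name pattern.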

Additional observations from a re-analysis of the deposited data

How the results depend on the processing

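The count of 4 trafficking circRNAs higher in TLE ranged from 1 to 5 when 1 library was left out (2 without TLE replicate 1, 2 without TLE replicate 2 and 1 without TLE replicate 3), and the count of 1 lower in TLE from 0 to 1 (0 without Control replicate 1, 2 or 3), because circles above 0 in 3 libraries then left the test. The count of host genes higher in TLE, 0, became 1 (Arfgef3) with a pseudocount of 8.55 SRPBM, with a pseudocount of 1 and with a log2 fold change of 1 as the threshold. With 1 library left out it ranged from 0 to 3. It was 3 without TLE replicate 1 (Vps16, Sgip1 and Dennd5b) and 1 without Control replicate 1 (Vps54), replicate 2 (Vps16) or replicate 3 (Exoc3). The share of total SRPBM, 2.38% over the 6 libraries, was 2.80% with the broader name pattern, which added 35 circRNAs of 7 genes. Pseudocounts of 8.55 and of 1 gave 6 circRNAs higher and 1 lower. No direction reversed for a called result under the alternatives in which it was tested. For the 4 called circles at 0 throughout a group a reversal was not possible, so this says nothing about them. Of 614 values of named circRNAs and genes under an alternative, 595 were labelled as unchanged. For a called circle this meant still past the threshold in the same direction, whatever the size: the log2 fold change of Snx27 ranged from 2.02 to 5.83. For the others it meant a move smaller than the replicate spread. Fits that a circle did not enter were not counted, so calls lost with a library left out are not among the 614. With the replicate block the counts were 4 higher and 1 lower for circRNAs and 0 and 0 for host genes. Same-numbered libraries were treated as unpaired in the main fit. The correlations of their deviations were 0.019, 0.014 and 0.010, but at such low read numbers a pairing could be missed. The smallest adjusted p of a member ranged from 0.139 to 0.979 over all settings. Depth limits all calls, since they rest on 20 junction reads or fewer.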
